A study of Mus musculus with 5 samples.

Results

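The endoplasmic reticulum folds and checks secreted and membrane proteins, and the unfolded protein response adjusts its capacity. The 32 genes described here encode chaperones and folding enzymes of that compartment (15 genes), the machinery that removes misfolded proteins from it (7 genes), the stress sensors with the transcription factor gene Xbp1 (4 genes), and the arm run by the transcription factor ATF4 (6 genes). They were taken by gene symbol from a list and not by a rule on measured values, but the list was chosen with earlier results of these data known. All 32 were found among the 24970 genes of the count files and passed the filter on low counts. The samples were bladder urothelium of 2 wild-type mice (WT 1 and WT 2, strain C57Bl/6) and 3 Nicastrin knockout mice (KO 1 to KO 3, genotype Krt5CreERT2;Ncstnflox/flox), all aged 10 weeks and with 1 RNA library per animal. In the knockouts an inducible Cre under the promoter of Krt5, a basal cell keratin gene, acts on floxed Ncstn, so deletion is limited to cells that make or made Krt5. The labels give no strain name for the knockouts and no Cre-carrying control, and the sources used here do not state the induction. Loss of Ncstn can therefore not be told apart from strain background or from Cre activity. Nicastrin is part of gamma-secretase, which cuts Notch receptors and other membrane proteins.

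The sensors sit in the membrane of the endoplasmic reticulum. ATF6 is cut in the Golgi to free a transcription factor, IRE1 (gene Ern1) splices the Xbp1 transcript so that it codes for an active factor, and PERK (gene Eif2ak3) phosphorylates the translation factor eIF2, which lets ATF4 be made. ATF6 and spliced XBP1 are known to raise chaperone and degradation genes, whereas ATF4 raises genes of amino acid supply and, under lasting stress, the gene Ddit3, whose product CHOP promotes cell death. Umbrella cells, the surface layer of the urothelium, make large amounts of uroplakins, membrane proteins that fold and are glycosylated in this compartment. Gene-level counts do not show Xbp1 splicing, cleavage of ATF6 or phosphorylation of PERK or eIF2.

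Most of the folding genes are textbook targets of ATF6 and XBP1 through a promoter sequence called the endoplasmic reticulum stress element, and the matches are shown here because they mark which members carry it close to the start of transcription. The pattern searched on both strands was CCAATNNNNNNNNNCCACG, in windows from 250 bases before to 50 bases after each RefSeq start (GRCm38.p6), which were at hand for 28 of the 32 members and not for Hyou1, Manf, Derl1 and Atf6. It was found in 9 of these 28 members, against 37 of 27025 genes (0.137%) with a window. The 37 genes include these 9. Because the list holds known targets of this element, the higher share among members is not a result of these data. Each stretch below runs 5′ to 3′ on the strand of its gene, with the fixed letters of the match in capitals, and a match in reverse orientation reads CGTGG first.
Hspa5, chr2:34772020-34772048, plus strand: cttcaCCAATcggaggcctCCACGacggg
Calr, chr8:84847070-84847098, minus strand: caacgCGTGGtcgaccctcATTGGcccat
Creld2, chr15:88819515-88819543, plus strand: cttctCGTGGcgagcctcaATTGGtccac
Syvn1, chr19:6046527-6046555, plus strand: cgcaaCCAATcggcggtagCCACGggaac
Hsp90b1, chr10:86705633-86705661, minus strand: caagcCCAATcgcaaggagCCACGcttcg
Hsp90b1, chr10:86705528-86705556, minus strand: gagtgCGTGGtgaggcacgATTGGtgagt
Canx, chr11:50325795-50325823, minus strand: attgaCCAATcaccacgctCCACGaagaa
Pdia6, chr12:17266486-17266514, plus strand: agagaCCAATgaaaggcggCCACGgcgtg
Dnajc3, chr14:118937822-118937850, plus strand: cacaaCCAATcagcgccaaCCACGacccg
Derl3, chr10:75893237-75893265, plus strand: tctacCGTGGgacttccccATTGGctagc

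The stretch of Hspa5 lies 65 to 47 bases before its RefSeq start and inside an exon of a longer Hspa5 transcript of GENCODE vM21, and the other stretches lie in no annotated gene. The first 4 genes printed rose in the knockouts by the test described below, and the last 5 did not pass it. In comparison, 6 of the 19 members with a window but no match rose, and 9.64% of all tested genes did. The related pattern ATTGGNCCACG was found in Herpud1, 52 to 42 bases before its start, and in Dnajb11, against 0.0444% of genes. For the ATF4 arm, the pattern TGATGNAA, known as the C/EBP-ATF response element, was found in 4 of the 28 members (Asns, Chac1, Trib3 and Herpud1) and in 4.51% of genes. In Dnajb11 and Trib3 these matches lie after the start. The element is shown for the amino acid gene Asns, which rose, where it lies in an annotated Asns exon, and for the glutathione-degrading enzyme gene Chac1, which did not pass.
Asns, chr6:7693220-7693237, minus strand: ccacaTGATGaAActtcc
Chac1, chr2:119351044-119351061, plus strand: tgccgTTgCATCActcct

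The pattern TGACGTGG, the unfolded protein response element, was in 0.714% of genes and had no match in these windows of the members. No 2 of these matches overlapped in a member. A match is a description of the sequence and not evidence that a factor binds there.

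Genes held 12608800 to 27188500 counts per library. Values per library are given in the order WT 1, WT 2 and KO 1, KO 2, KO 3. Rn45s, a ribosomal RNA precursor, made up 7.84% (WT 1) and 3.23% (WT 2) of the counts, against 0.608% to 1.53% in the knockouts. The nuclear RNA Malat1 made up 0.390% and 0.281% against 0.0658% to 0.0779%, so both RNAs were higher in the wild types without overlap, and their part in the results was not tested beyond a fit without such genes, which kept all 12 calls given below. Libraries of the same genotype were more alike (Spearman correlation across genes 0.990 to 0.995) than libraries of different genotype (0.971 to 0.982). Ncstn was at 144 and 129.6 CPM (read counts scaled to the size of the library) in the wild types and at 114, 117 and 123 CPM in the knockouts, with a log2 fold change of -0.21 ± 0.09 (SE) that did not pass. The floxed part of Ncstn is not named in the labels, and reads from its other exons are counted too, so this level does not check the deletion. The defining urothelial genes Upk1a, Upk2, Krt5 and Krt20 were present in every library, with Upk1a at 2409 to 4096 CPM and Krt20, a keratin of umbrella cells, at 191 to 277 CPM.

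Other cells in the dissected tissue moved with genotype too. The 18 urothelial markers summed to 16069 and 18167 CPM in the wild types and to 24819, 24132 and 22233 CPM in the knockouts, and 7 of 18 rose (edgeR quasi-likelihood test, adjusted p under 0.05), with a median log2 fold change of 0.37. The 18 fibroblast markers, which include the collagens Col1a1 and Col3a1, summed to 22564 and 20226 CPM in the wild types and to 13082, 15372 and 15731 CPM in the knockouts, and 15 of 18 fell, with a median of -0.73. Of 12 endothelial markers 5 fell, with sums of 799 and 750.1 CPM against 545, 659.9 and 583 CPM, while the 14 macrophage markers (2 rose and 2 fell) and 10 smooth muscle markers (1 fell) had overlapping sums, at 290.1 to 433 and 465 to 605 CPM. Plasma cells, which are rich in these chaperones, could be judged by few markers. Of 16 plasma and B cell markers listed, 11 were among the genes counted and 4 passed the filter on low counts. Of these 4 markers, 2 fell (Irf4 and Prdm1, adjusted p = 0.00711 and 0.00549) and none rose (edgeR), with a median log2 fold change of -0.51. Jchain, which did not pass (adjusted p = 0.0633), was at 1.20 and 0.418 CPM in the wild types and at 1.69, 2.04 and 2.96 CPM in the knockouts, while Mzb1 and Tnfrsf17 had at most 5 counts in any library. The list of plasma and B cell markers as a sum (810.4 to 981 CPM) was nearly all Sdc1, which epithelia also express. In bulk tissue a smaller number of cells of a type and less RNA per cell cannot be told apart, and the part of this shift in tissue make-up in the results that follow was not tested.

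Of the 32 members, 12 rose in the knockouts (37.5%), 20 did not pass and none fell (edgeR quasi-likelihood test, Benjamini-Hochberg adjusted p under 0.05 over all 14779 genes tested; changes are given as log2 fold change ± SE). Across all tested genes 9.64% rose and 10% fell, 19.7% in total. Of members with a lower level, 2 had an unadjusted p under 0.05 (Ern1 and Ddit3), and DESeq2 and limma-voom also called none lower. The 12 were 7 of 15 folding genes, 2 of 7 degradation genes and 3 of 6 genes of the ATF4 arm, with none of 4 among the sensors and Xbp1. Their changes were moderate, from 1.24-fold for Derl2 to 1.83-fold for Calr. All 3 knockouts lay above both wild types for 21 members, against 25.9% of all tested genes, and below both for Ddit3 alone, against 25.1%. The median log2 fold change was 0.20 over the members and 0.01 over all tested genes. Summed over the members, the level was 4422 and 4616 CPM in the wild types against 5716, 5588 and 5354 CPM in the knockouts.

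**Figure D1:**
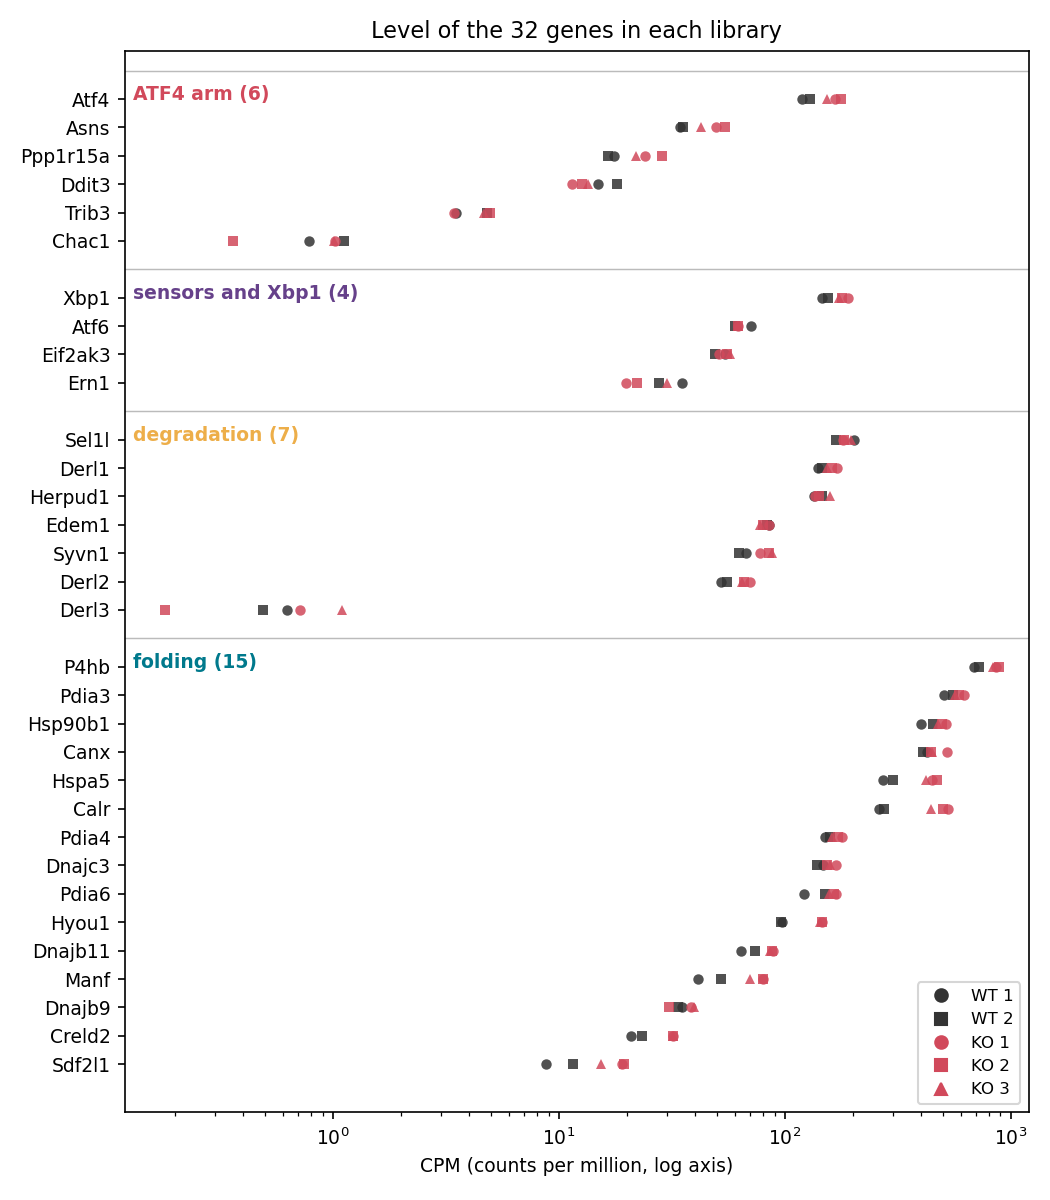
Level of each of the 32 genes in each library, in CPM on a log axis, ordered by role and wild-type mean. Black symbols are the 2 wild types and red symbols the 3 knockouts; 21 genes have all red symbols to the right of the black ones, and Ddit3 has them to the left.

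How many members rose depended on the libraries. Without WT 1, 4 members rose (2.28% of all genes tested then), and these were Hspa5, Hyou1, Calr and Manf. The count was 7 without WT 2 (4.53% of all genes), 7 without KO 1 (5.74%), 6 without KO 2 (5.5%) and 11 without KO 3 (11.8%). Hspa5, Hyou1, Calr and Manf passed in all 14 alternative settings, with adjusted p-values of at most 0.0491.

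The chaperone BiP, encoded by Hspa5 on chromosome 2 (34771970 to 34777547, GRCm38), binds unfolded proteins and holds the sensors inactive. Hspa5 was at 271 and 302 CPM in the wild types and at 449, 473 and 423 CPM in the knockouts. Every knockout was well above both wild types, with no overlap. It rose 1.57-fold (log2 fold change 0.65 ± 0.11, adjusted p = 0.00281). Hyou1, a large relative of BiP that exchanges its nucleotide, was at 97.4 and 96 CPM in the wild types and at 146, 146 and 143 CPM in the knockouts. The 5 values fell into 2 tight sets by genotype, and the gene rose 1.5-fold (log2 fold change 0.59 ± 0.09, adjusted p = 0.00182).

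Partners of BiP varied. Sdf2l1, a small partner of the BiP cochaperone complex, was at 8.77 and 11.6 CPM in the wild types and at 19.1, 19.4 and 15.4 CPM in the knockouts. The knockouts were all higher, KO 3 by the smallest margin, and Sdf2l1 rose 1.78-fold (adjusted p = 0.00858), a call lost without WT 1 (adjusted p = 0.116). Dnajb11, which encodes a J-domain cochaperone that delivers clients to BiP, was at 64.1 and 74.1 CPM against 88.8, 87.8 and 85.8 CPM. The groups did not overlap, and the rise was 1.27-fold (adjusted p = 0.0342). Dnajb11 did not pass without WT 1, KO 1 or KO 2 (adjusted p = 0.254, 0.100 and 0.0998), nor with a filter at 5 CPM (0.0511) or factors taken from the upper quartile (0.0560). Dnajc3, another J-domain cochaperone, had a log2 fold change of 0.16 (95% interval -0.04 to 0.37, adjusted p = 0.242). For Dnajb9, a J-domain cochaperone known as an XBP1 target, it was 0.08 (95% interval -0.20 to 0.36, adjusted p = 0.71), and KO 2 had the lowest value of all 5 libraries at 30.8 CPM.

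Manf and Creld2 encode small proteins that are retained in the compartment or secreted under stress. Manf was at 41.1 and 51.9 CPM in the wild types and at 80.3, 80.1 and 70.2 CPM in the knockouts. The lowest knockout exceeded the higher wild type, and Manf rose 1.66-fold (log2 fold change 0.73 ± 0.12, adjusted p = 0.00330). Creld2 was at 20.9 and 23.3 CPM in the wild types and at 32, 31.9 and 32 CPM in the knockouts. These 3 knockout values were almost equal, and the rise was 1.45-fold (adjusted p = 0.00840), which did not pass without WT 1 (adjusted p = 0.0991). Hsp90b1 encodes the chaperone of the HSP90 family in this compartment, and was at 402 and 452 CPM against 514, 496 and 475 CPM. Its groups did not overlap, yet the wild types differed from each other by more than WT 2 did from any knockout except KO 1, and the log2 fold change of 0.21 (95% interval -0.02 to 0.45) did not pass (adjusted p = 0.176).

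Calreticulin (Calr) and calnexin (Canx) are the paired lectin chaperones that bind glycoproteins, the first soluble and the second in the membrane. Calr, on chromosome 8 (84841850 to 84846934), was at 262 and 274 CPM in the wild types and at 527, 503 and 443 CPM in the knockouts. All knockouts were far above the wild types, and Calr had the highest fold change of the 32 members, 1.83-fold (log2 fold change 0.88 ± 0.11, adjusted p = 0.000818). Canx was at 427 and 409.6 CPM in the wild types and at 523, 443 and 446 CPM in the knockouts. KO 1 was high and the other 2 knockouts lay just above WT 1, and the log2 fold change of 0.17 (95% interval -0.08 to 0.42) did not pass (adjusted p = 0.307).

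The 4 protein disulfide isomerases make and reshuffle disulfide bonds, and P4hb is also a subunit of the enzyme that hydroxylates collagen. None of them passed, although the knockouts lay above both wild types for each. P4hb was closest, at 707 ± 26.9 CPM in the wild types (SD, n = 2) against 861 ± 22.7 CPM in the knockouts (SD, n = 3), with a log2 fold change of 0.28 (95% interval 0.05 to 0.52, edgeR adjusted p = 0.0825), and passed in DESeq2 (adjusted p = 0.0162). Pdia6, Pdia3 and Pdia4 had log2 fold changes of 0.26, 0.16 and 0.15 (edgeR adjusted p = 0.117, 0.307 and 0.286). The upper bounds of the 4 intervals ran from 0.36 for Pdia4 to 0.52 for P4hb. In all, 14 of 15 folding genes had every knockout above both wild types, against 25.9% of all tested genes. Dnajb9 was the exception, and the median log2 fold change of the 15 folding genes was 0.28.

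**Figure D2:**
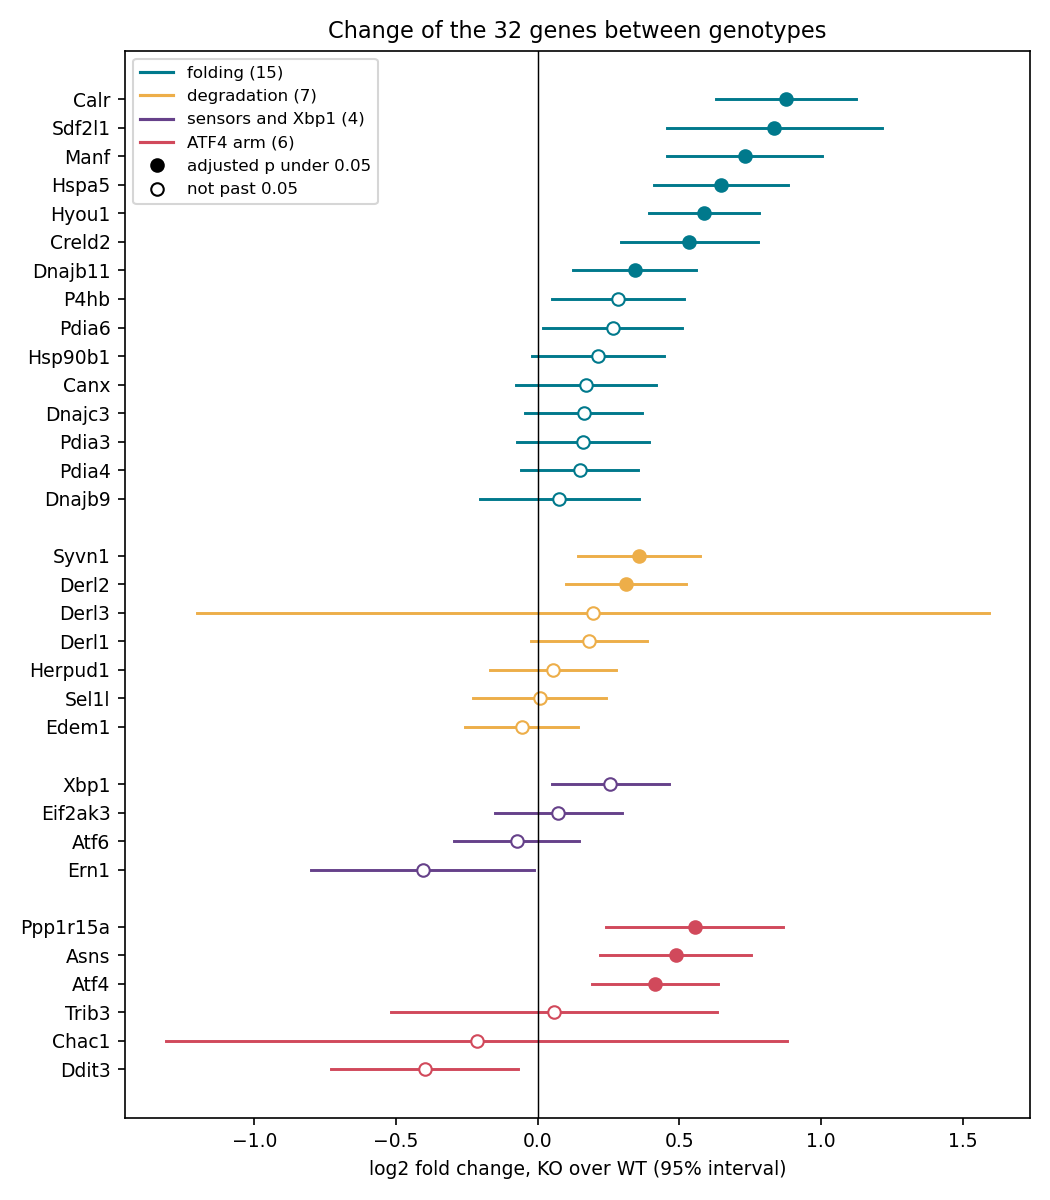
Log2 fold change of each of the 32 genes, knockout over wild type, with its 95% interval and coloured by role. Filled points passed an adjusted p of 0.05; all 15 folding genes lie above 0, from 0.08 (Dnajb9) to 0.88 (Calr), and the ATF4 arm runs from -0.40 (Ddit3) to 0.55 (Ppp1r15a).

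Because levels between genes can be compared only per length, CPM was divided by the exon length of each gene in kilobases. On that scale the folding genes led in the wild types, with P4hb at 247, Pdia3 at 169, Hsp90b1 at 106, Calr at 93.0, Canx at 89.1 and Hspa5 at 67.8 CPM per kilobase. In the knockouts the means were 301 for P4hb, 189 for Pdia3, 171 for Calr, 123 for Hsp90b1, 106 for Hspa5 and 100.3 CPM per kilobase for Canx. By these means Calr stood above Hsp90b1, and Hspa5 above Canx, in the knockouts but not in the wild types. In KO 1 taken alone, Canx stood above Hspa5. Such ranks also depend on the exon length used, here that of all annotated exons of a gene. At the other end, Derl3 and Chac1 were at 0.280 and 0.580 CPM per kilobase in the wild types, from 7 to 16 counts per library.

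Ratios within a library cancel its depth and scaling, and 6 were computed for pairs chosen after their values were seen. The ratio of Calr to Canx counts was 0.613 and 0.669 in the wild types against 1.01, 1.14 and 0.993 in the knockouts. For Hspa5 over Hsp90b1 it was 0.675 and 0.667 against 0.874, 0.955 and 0.890. Manf over Pdia4 gave 0.273 and 0.327 against 0.447, 0.467 and 0.432. Each of the 6 ratios was higher in every knockout than in both wild types. Every pair set a gene that rose over a gene that did not, so this restates the changes above and adds no support. An exact two-sided permutation test over the libraries gave p = 0.2 for each (0.2 adjusted over the 6), the smallest value that 2 against 3 libraries allow.

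**Figure D3:**
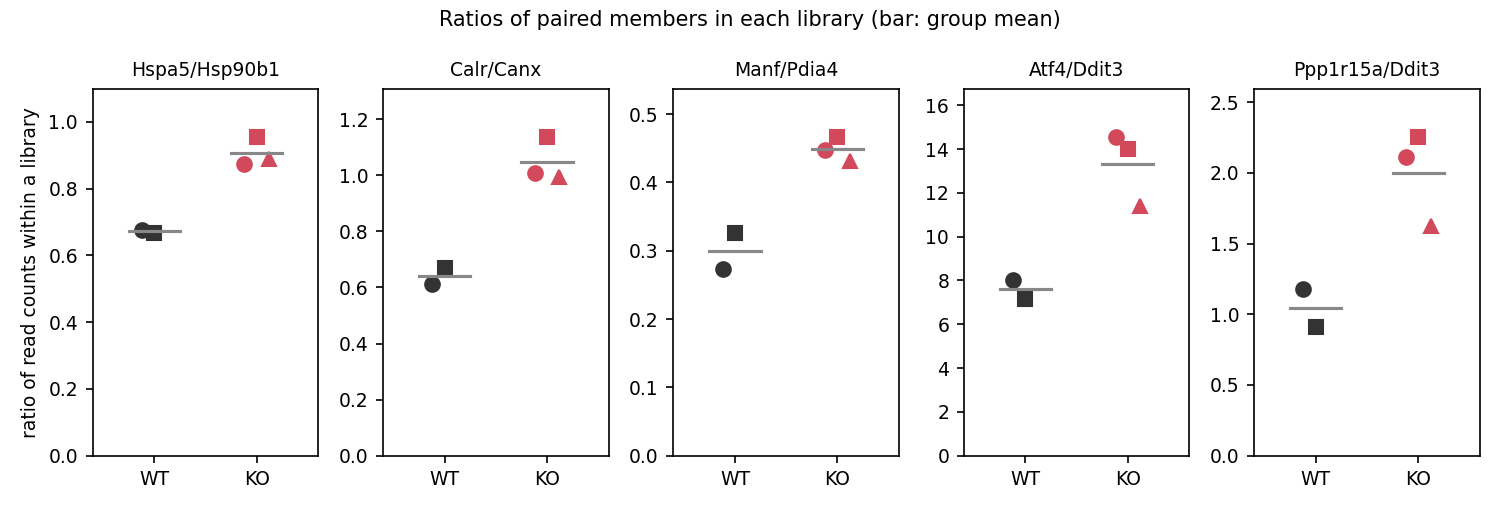
Ratio of the read counts of 2 members within each library, for 5 pairs, on linear axes that start at 0. Circles, squares and triangles are replicates 1, 2 and 3 and grey bars are group means; the 3 red knockout ratios lie above both black wild-type ratios in each panel, as for Calr over Canx (0.993 to 1.14 against 0.613 and 0.669).

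Proteins that fail to fold are returned to the cytosol through a channel complex and degraded. Syvn1 encodes HRD1, the ubiquitin ligase at its centre, and was at 67.5 and 62.9 CPM in the wild types and at 77.9, 85 and 87.9 CPM in the knockouts. The groups did not overlap and Syvn1 rose 1.28-fold (log2 fold change 0.36 ± 0.10, adjusted p = 0.0288). Derl2, a derlin of the same channel, was at 52.2 and 55.5 CPM in the wild types and at 70.1, 65.6 and 64.5 CPM in the knockouts. Again every knockout was higher, and Derl2 rose 1.24-fold (adjusted p = 0.0440). Both calls depended on single libraries. Syvn1 passed only without KO 1 among the 5 single-library omissions and not with a filter at 5 CPM (adjusted p = 0.0513), and without WT 1, WT 2, KO 2 and KO 3 its adjusted p was 0.102, 0.150, 0.0996 and 0.0553. Derl2 passed only without KO 3, with adjusted p = 0.240, 0.0955, 0.145 and 0.107 without WT 1, WT 2, KO 1 and KO 2, and it did not pass in DESeq2 (0.0503), after a filter at 5 CPM (0.0699) or with upper-quartile factors (0.0717).

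The other 5 degradation genes did not pass. Derl1 had a log2 fold change of 0.18 (95% interval -0.02 to 0.38) with all knockouts above both wild types. Sel1l, the partner that holds HRD1 in place, was at 203 and 168 CPM against 180.4, 184 and 196 CPM, so that the wild types enclosed the knockouts (95% interval -0.23 to 0.24). Herpud1, a stress-induced scaffold of the channel, had 0.05 (-0.17 to 0.28), and Edem1, which picks out glycoproteins for removal, had -0.06 (-0.26 to 0.14). These intervals for Sel1l, Herpud1 and Edem1 do not reach the 0.31 estimated for Derl2. Derl3, the derlin of secretory cells such as plasma cells, had 3 to 19 counts per library and its interval ran from -1.20 to 1.59.

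The sensors themselves did not pass the test. Xbp1, on chromosome 11 (5520659 to 5525893), was at 147 and 156 CPM in the wild types and at 189.6, 178 and 174 CPM in the knockouts. All knockouts were higher, but the log2 fold change of 0.26 (95% interval 0.05 to 0.46) missed the threshold (edgeR adjusted p = 0.0765) and stayed between 0.21 and 0.28 in the alternatives. Atf6 was at 70.6 and 60.2 CPM in the wild types and at 62.3, 62.3 and 61.8 CPM in the knockouts, with all 3 between the wild types (log2 fold change -0.07, 95% interval -0.30 to 0.15). Eif2ak3, which encodes PERK, was at 54.3 and 49.3 CPM against 51.0, 55.5 and 57.3 CPM (log2 fold change 0.07, 95% interval -0.15 to 0.30). Both genes overlapped between genotypes.

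Ern1, the gene of IRE1, had the lowest log2 fold change of the 32 members. It was at 35.2 and 27.8 CPM in the wild types and at 19.8, 22.1 and 30.2 CPM in the knockouts. KO 3 lay between the wild types, and KO 1 and KO 2 lay below both. With all libraries Ern1 did not pass (log2 fold change -0.41, 95% interval -0.80 to -0.01, adjusted p = 0.133), and without KO 3 it did (log2 fold change -0.61, adjusted p = 0.00597). It also passed with no filter on low counts (edgeR adjusted p = 0.0292). Over these 4 genes the unadjusted p was under 0.05 for 2, Xbp1 and Ern1, with opposite signs, and neither DESeq2 nor limma-voom called any of the 4.

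In the ATF4 arm the factor and 2 of its targets rose. Atf4, on chromosome 15 (80255184 to 80257541), was at 119 and 129.8 CPM in the wild types and at 166, 178 and 154 CPM in the knockouts. The groups did not overlap, and Atf4 rose 1.33-fold (log2 fold change 0.41 ± 0.10, adjusted p = 0.0175). ATF4 is controlled mostly at translation, which transcript counts do not measure. Asns, encoding asparagine synthetase, was at 34.3 and 35.3 CPM against 49.3, 54.1 and 42.6 CPM. Again the knockouts were all higher, and Asns rose 1.4-fold (adjusted p = 0.0190). Ppp1r15a encodes GADD34, which reverses eIF2 phosphorylation, and was at 17.4 and 16.4 CPM against 24.1, 28.6 and 21.9 CPM. This was a rise of 1.47-fold (log2 fold change 0.55 ± 0.14, adjusted p = 0.0216) without overlap.

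None of the 3 other genes of this arm, which are tied to prolonged stress, passed the test. Ddit3, the gene of CHOP, was at 14.8 and 18.1 CPM in the wild types and at 11.4, 12.7 and 13.5 CPM in the knockouts. It was the 1 member with every knockout below both wild types, and its log2 fold change of -0.40 (95% interval -0.73 to -0.07) did not pass (adjusted p = 0.0848). Without KO 3 it passed (adjusted p = 0.0411). Trib3, a pseudokinase gene induced by CHOP and ATF4, overlapped between genotypes at 3.43 to 4.93 CPM (95% interval -0.52 to 0.63). Chac1 had 6 to 27 counts per library and an interval from -1.31 to 0.88. The ratio of Atf4 to Ddit3 counts was 8.04 and 7.16 in the wild types against 14.6, 14.0 and 11.4 in the knockouts, and that of Ppp1r15a to Ddit3 was 1.18 and 0.908 against 2.11, 2.26 and 1.62.

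The 3 calls of this arm did not hold when a library was left out, unless it was KO 3. Without WT 1 the adjusted p was 0.152 for Atf4, 0.147 for Asns and 0.121 for Ppp1r15a, and without WT 2 it was 0.0541, 0.0851 and 0.117. Without KO 1 it was 0.0519, 0.0545 and 0.0515, and without KO 2 it was 0.0747, 0.0632 and 0.0781. Their log2 fold changes stayed positive in all 14 alternative settings. Between the arms, the folding genes had a median log2 fold change of 0.28 with 7 of 15 higher, and the ATF4 arm 0.24 with 3 of 6 higher. Values of the ATF4 arm ran from -0.40 to 0.55, while all 15 folding genes were above 0. The 2 genes of the ATF4 arm below 0, Ddit3 and Chac1, did not pass, and a difference between the arms was not tested.

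Companion lists of the same pathway place these values. Of 20 cytosolic aminoacyl-tRNA synthetase genes, several of which are known ATF4 targets, 10 rose and the other 10 did not pass. The share that rose was 50%, against 9.64% of all tested genes, and the median was 0.30. Farsa and Gars rose 1.47-fold and 1.35-fold (adjusted p = 0.00723 and 0.00939), Wars 1.33-fold and Mars 1.35-fold. Every one of these calls was lost with WT 1 left out, and 3, 5 and 2 genes rose with WT 2, KO 1 and KO 2 left out. In the 9 alternatives with no library omitted, 8 to 11 rose. These 9 include a fit with a term for replicate number, which takes KO 3 out of the comparison. Of 30 other ATF4 targets tested, 8 rose (26.7%), 3 fell (10%, the share of all tested genes) and 19 did not pass, with a median of 0.19. Slc3a2, the heavy chain of amino acid exchangers, rose 1.39-fold (adjusted p = 0.00869), and Atf3, a stress-induced factor gene at 0.836 to 4.33 CPM, rose 3.43-fold (adjusted p = 0.00893). The glutamine transporter gene Slc1a5 fell 1.77-fold (adjusted p = 0.000465) and the stress gene Nupr1 fell 1.57-fold (adjusted p = 0.00713). In this list 1 gene rose with WT 1 left out, 2 with WT 2, 5 with KO 1 and 4 with KO 2 left out, and 1 fell with WT 2 and 5 with KO 3 left out. The 9 alternatives with no library omitted gave 6 to 12 that rose and 3 to 5 that fell. Among 13 genes of eIF2, its other kinases and its exchange factor, the amino acid sensing kinase gene Eif2ak4 fell 1.27-fold (adjusted p = 0.0443) and 12 did not pass. Eif2ak4 passed only without KO 3 among the single-library omissions and not in DESeq2 (adjusted p = 0.0674), and 0 to 3 genes of this list rose in the alternatives.

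Upstream of folding, 2 of 23 genes of the translocon and signal peptide machinery rose, Sec61a1 1.26-fold and Srprb 1.29-fold (adjusted p = 0.0299 and 0.0275), and 21 did not pass. That is 8.70% of the list, close to the 9.64% of all tested genes. Neither passed without WT 1, WT 2, KO 1 or KO 2. Of 20 genes of N-glycosylation and glycan trimming, 3 rose (15%) and 17 did not pass. These were Mogs and Prkcsh, which trim glucose from new glycans, at 1.47-fold and 1.33-fold, and Rpn2, a subunit of the oligosaccharyltransferase, at 1.37-fold (adjusted p = 0.00483, 0.0162 and 0.00911), all lost without WT 1. In the list of 24 other degradation genes, Ube2g2, Aup1 and Edem2 rose 1.31-fold, 1.30-fold and 1.28-fold (12.5% of the list) and 21 did not pass, and all 3 calls were lost without WT 1, without KO 1 and without KO 2. In the 9 alternatives with no library omitted these 3 lists had 2 to 4, 3 to 6 and 2 to 7 genes that rose. Their medians were 0.12 each.

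Of 13 collagen-specific folding genes tested, 4 fell (30.8%, against 10% of all tested genes) and 9 did not pass, with a median of -0.20. Serpinh1, the collagen chaperone, was at 364 and 453 CPM in the wild types and at 237, 265 and 241 CPM in the knockouts, and fell 1.65-fold (adjusted p = 0.00262). P3h2 and P3h3, which hydroxylate collagen prolines, both fell 1.52-fold, and Fkbp10 fell 1.35-fold. Of 36 other folding factors, 4 fell, 1 rose and 31 did not pass, and the share that fell, 11.1%, was near the 10% of all tested genes. The prolyl isomerase gene Fkbp7 fell 2.27-fold (adjusted p = 0.000529), Fkbp9 fell 1.33-fold and the calcium-binding protein gene Calu fell 1.31-fold, whereas Txndc11 rose 1.34-fold. In this list 2 genes fell when WT 1, KO 1 or KO 2 was left out, 1 when WT 2 was, and 6 when KO 3 was. In the 9 alternatives with no library omitted, 3 to 7 fell.

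Among 14 further stress transducers, Ern2 and Atf6b moved in opposite directions. Ern2, the IRE1 relative of mucosal epithelia, was at 14.5 and 11 CPM in the wild types and at 3.73, 5.11 and 2.41 CPM in the knockouts. The groups were far apart, and Ern2 fell 3.37-fold (log2 fold change -1.75 ± 0.26, adjusted p = 0.00179), passing in all 14 alternatives. Atf6b, the relative of Atf6, was at 69.9 and 71.2 CPM against 95.8, 99.9 and 96.9 CPM and rose 1.38-fold (adjusted p = 0.00589), a call lost without WT 1 (adjusted p = 0.0588). The other 12 did not pass.

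**Figure D4:**
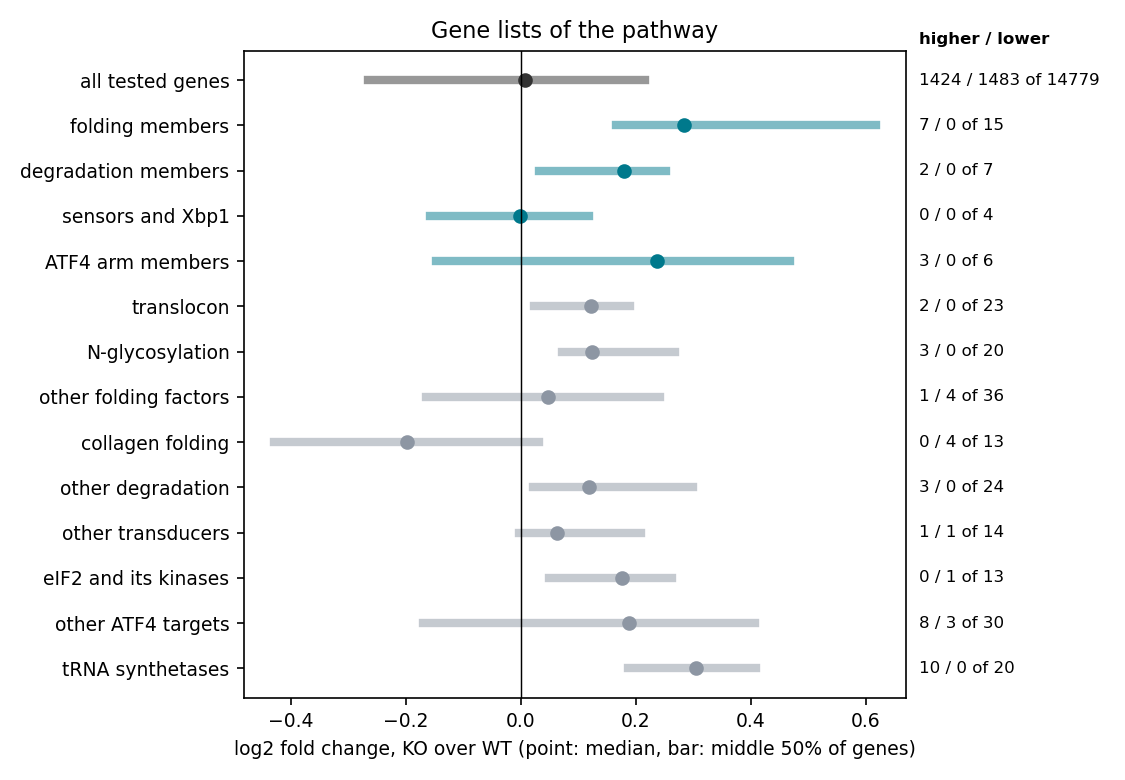
Median (point) and middle 50% (bar) of the log2 fold change, knockout over wild type, for all tested genes, the 4 roles of the members and the companion lists, with the number of genes that rose and fell at right. The cell type markers, the heat shock genes and the immediate early genes are not drawn. Among the lists drawn, the folding members and the tRNA synthetases have the highest medians (0.28 and 0.30) and collagen folding the lowest (-0.20).

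The strand setting of the counting is unknown here, so it is not known how reads over bases shared with an opposite-strand gene were assigned. The counts hold a separate entry for ambiguous reads, so such reads may be absent from both genes. This was not tested. In GENCODE vM21, 10 of the 32 members share exon bases with a gene on the opposite strand. Among them, Derl2 shares 231 bases with Mis12, Manf 146 with Dcaf1, Hsp90b1 415 with the pseudogene 1810014B01Rik, Syvn1 91 with Mrpl49 and Ddit3 68 with Mars. Mars itself rose 1.35-fold, while the log2 fold change of Ddit3 was -0.40.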

How the data were processed

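The deposited values were raw read counts per gene symbol, 1 file per library, and had not been normalized. Per the labels' protocols, urothelium was dissected from the muscle layer, total RNA came from TRI-Reagent extraction and went into Illumina TruSeq libraries. HISAT2 2.1.0, HTSeq 0.11.1, DESeq2 and the build mm10 are named, per the submitters' processing notes; the annotation and strand setting of the counting are not stated there. Genes held 49.3% to 60.6% of tallied reads per library, and the 5 summary entries that held the rest entered neither library sizes nor tests.

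Genes were filtered with filterByExpr (count 10, total 15) and scaled with TMM factors of 0.978 to 1.03. CPM uses these factors. The test was edgeR's quasi-likelihood fit of genotype over all 5 libraries, adjusted over 14779 genes, at 0.05. The SE is the log2 fold change divided by the square root of F, and intervals are 95%. R 4.3.3 was used with edgeR 4.0.16. The alternatives used limma 3.58.1 (voom) and DESeq2 1.42.0, other scalings and filters, a robust fit, a replicate block and the omission of each library. P-values rest on the spread between these mice, which the fit moderates for each gene toward that of all genes tested. Each library was taken as 1 mouse from the design text, and replicate counts differed by more than counting error (chi-square per degree of freedom 9.70 to 38.4).

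Members, lists, rules and alternatives were chosen with earlier results of these data known. Values per library were given for members past the test and for 8 central members set by rule (Hspa5, Hsp90b1, Xbp1, Atf6, Ern1, Eif2ak3, Atf4 and Ddit3). Those of Canx and Sel1l were added outside this rule, with their values known. Companion lists were named by up to 4 smallest p. Lists are described by counts and medians, without a list test. In simulated counts for 14622 genes (50 changed at each fold, mean of at least 10 CPM), the test recovered 4% at 1.25-fold, 56% at 1.5-fold and 98% at 2-fold, and 6.52% of calls were false. In the simulation 138 genes were called, against 2907 in the data, so the same adjusted p asked for a smaller unadjusted p. Its recovery at small folds therefore does not give the power of the test in the data. Positions and exon lengths come from GENCODE vM21 (GRCm38, the build of mm10; 32 of 32 members matched) and promoter windows from RefSeq on GRCm38.p6.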

Additional observations from a re-analysis of the deposited data

How the results depend on the processing

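Over all genes, leaving out single libraries moved the count of higher genes between 340 and 1743 and of lower genes between 375 and 2246. For the 32 members these omissions gave 4 to 11 higher and 0 to 2 lower, for the folding genes 4 to 7 higher, and for the ATF4 arm 0 to 3 higher and 0 to 1 lower. With no filter on low counts, 1 member was lower (Ern1). A fit with a replicate block gave 2211 higher and 2426 lower genes, 2 lower members (Ern1 and Ddit3, hence 1 in the ATF4 arm) and 13 higher members, including all 12. This block takes KO 3, which has no wild type of its number, out of the comparison, and the numbers share no more than a label: the deviations of same-numbered libraries correlated at -0.055 and 0.052. RLE scaling, a robust fit, limma-voom and a table without ribosomal or nuclear RNA genes kept all 12 calls. DESeq2 kept 11, upper-quartile scaling 10 and a filter at 5 CPM in 2 libraries 9. No call of a member reversed in any alternative run. Causes of these shifts were not tested. With 2 against 3 mice, changes of the smallest simulated size were mostly missed, in a simulation with far fewer calls than the data. Members that did not pass may still differ within their 95% intervals. The upper bounds were 0.14 for Edem1, 0.15 for Atf6, 0.24 for Sel1l, 0.28 for Herpud1 and 0.30 for Eif2ak3, and higher for the others.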

Other observations

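The cytosolic and mitochondrial heat shock list, the counterpart of these chaperones outside the endoplasmic reticulum, had 7 of 19 genes higher and 1 lower, with a median log2 fold change of 0.26. The share that rose was 36.8%, near the 37.5% of the 32 members, against 9.64% of all tested genes. Hspa1b, an inducible cytosolic relative of BiP, was at 33.4 and 33.0 CPM in the wild types and at 78.6, 70.9 and 85.7 CPM in the knockouts and rose 2.36-fold (edgeR adjusted p = 0.000101), Hspa1a rose 1.97-fold, Bag3 1.79-fold and Hsph1 1.46-fold. Hspa1a and Hspa1b are near-identical copies, so the split of reads between them is uncertain. In this list 2 genes rose when WT 1 was left out and 4 when WT 2, KO 1 or KO 2 was.

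Among 17 immediate early genes tested, which respond within minutes to stimuli and to tissue handling, 7 rose and 10 did not pass. The share that rose was 41.2%, against 9.64% of all tested genes. Socs3 was at 8.30 and 7.39 CPM in the wild types and at 47.8, 65.3 and 45.5 CPM in the knockouts and rose 6.71-fold (edgeR adjusted p = 2.08e-05), Klf6 rose 1.53-fold, Jun 1.61-fold and Dusp1 2.74-fold. With single libraries left out 4 to 7 rose. Their part in the values of the ATF4 arm was not tested.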
